A study of Danio rerio with 7 samples.

Results

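The response to tbx5-MO, the ratio of morphant over WT RNA, was compared between 48 and 30 hpf (hours post fertilization). For each gene the mean log2 ratio of the 3 arrays at 48 hpf was set against that of the 2 arrays at 30 hpf, and the difference, 48 minus 30 hpf, is the quantity described here. Of 43504 genes and single probes in the value table, 1936 genes carried a name. A gene was named where 1 of its probes stood in the authors' list of probes at least 1.5-fold lower in the morphants on both arrays at 24 hpf, and where the 24 hpf values of that probe were found on 1 row of the value table alone. Neither 48 nor 30 hpf therefore chose the names, but every named gene was below WT at 24 hpf by this choice, and its 24 hpf values are not a finding. The fit behind the standard errors and p-values also took spread from both 24 hpf arrays, so for named genes these are not free of the choice. The median standard error was 0.55 over named genes and 0.64 over all genes and single probes. The part of the choice in this gap was not tested.

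Each array set whole AB strain zebrafish embryos injected at the 1-cell stage with a morpholino against the translational start of tbx5, labelled with Cy5, against control wild-type embryos of the same stage, labelled with Cy3. A morpholino is a synthetic antisense oligonucleotide, and this one blocks translation and need not alter the RNA of its target, so no RNA level checks the knockdown. The gene tbx5a was not among the named genes. Per the study's methods, RNA of 50 embryos made 1 sample, and the controls analysed here were WT embryos and not embryos injected with another morpholino. Separate pools of embryos are not named for the arrays of 1 stage, so a p-value here covers the spread between arrays alone, and that spread may be technical. No array had the dyes exchanged, so dye and morpholino cannot be told apart within a ratio. In whole embryos, fewer cells of a type and less RNA per cell cannot be told apart.

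Tbx5 is a T-box transcription factor of the developing heart and forelimb, and in zebrafish its loss leaves embryos with a heart that does not loop and without pectoral fins. Between the stages compared, the fast muscle of the trunk, the lens fibres, the first neuronal circuits and the circulating red blood cells of a zebrafish embryo add large amounts of their own structural and carrier proteins. A ratio against WT embryos of the same stage therefore compares the morphants with a WT level that itself moves between the stages.

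The deposited ratios were already centred, with array medians between -0.03 and 0.01, and their standard deviation over probes lay between 0.77 and 1.49. Across all 43663 probes the 48 hpf arrays correlated with the 30 hpf arrays at -0.03 to 0.04, and over probes whose value was found once on each array at -0.31 to -0.04. Among themselves over such probes, the 48 hpf arrays correlated at 0.68 to 0.70 and both 30 hpf arrays at 0.65. These correlations are across probes of the same arrays and are given as a description. The array names in the headers of the authors' lists begin with 1 of 2 prefixes, and no source used here states what these stand for. Both 30 hpf arrays and 24 hpf replicate 1 had 1 prefix, and the 3 arrays at 48 hpf and 24 hpf replicate 2 the other, so stage and prefix can be told apart only through the 24 hpf arrays.

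Many muscle, lens, neuronal, globin and keratin genes stood above WT at 48 hpf and below WT at 30 hpf. Of the 1936 named genes, 158 (8.16%) did so on every one of the 5 arrays, against 5.23% of all genes and single probes. The opposite, below WT on every array at 48 hpf and above on both at 30 hpf, held for 130 named genes (6.71%), against 5.22% of all. Another 173 named genes (8.94%) were below WT on all 5 arrays, against 5.54% of all, and 63 (3.25%) were above WT on all 5, against 4.23%. The remaining 1412 named genes (72.9%) did not keep 1 side in 1 or both of the stages.

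Dim spots vary more, and the spot intensities were not used here. A log2 value that recurs on many probes of an array was read as the sign of a dim spot, an inference that no intensity backs. Among the 1094 named genes left when each probe value had to be shared by at most 10 probes of its array, the shares above at 48 hpf and below at 30 hpf (107 genes, 9.78%) and the reverse (104 genes, 9.51%) were close to each other. The shares of all 10779 genes and single probes so filtered were 7.4% and 10.9%. Of the filtered named genes 131 (12%) were below WT on all 5 arrays, against 11.2% of all, and 41 (3.75%) above, against 5.94%. Counts of side alone thus lay near the background.

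At 1.5-fold the counts of named genes differed more between the patterns. At least 1.5-fold above WT on each 48 hpf array and at least 1.5-fold below on each 30 hpf array stood 32 named genes (1.65%), against 0.352% of all genes and single probes. The reverse held for 3 named genes (0.155%, against 0.175% of all), gar1, pfas and myef2. Below WT by at least 1.5-fold on all 5 arrays stood 5 named genes (0.258%, against 0.149%), fabp3, itga6a, adka, lemd1 and tnnt2c, and above on all 5 stood lypd6b alone (0.0517%, against 0.0919%). Of the 32 genes, 18 belonged to the lists of skeletal muscle (8), lens (4), red blood cell (3), epidermis and keratins (2) and neuron (1). These 5 lists held 75 of the 1936 named genes. They were set apart because their medians changed side on the same arrays, so this count is a description and not separate support. The background of these shares is unlike the named genes. The filter on shared values kept 1094 of 1936 named genes, but 10779 of 43504 genes and single probes. No 1.5-fold share was computed after that filter, so its part in the gap between named genes and all was not tested. Named genes were also chosen as low at 24 hpf. Over probes whose value was found once, 24 hpf replicate 1 correlated with the 30 hpf arrays at 0.22 and 0.30. With the 48 hpf arrays it correlated at -0.16 to 0.00. For 24 hpf replicate 2 these were -0.05 to -0.00 and -0.14 to -0.06. The part of this choice in the gap, and in the counts of side above, was not tested.

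**Figure D1:**
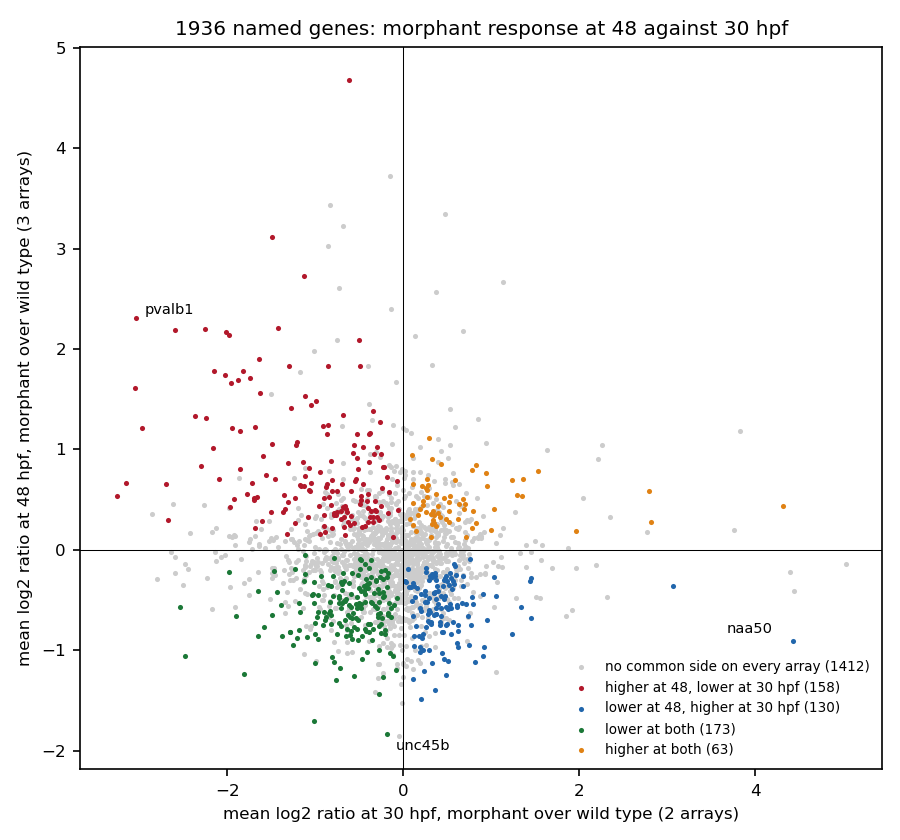
Mean log2 ratio of morphant over WT at 48 hpf (vertical axis, 3 arrays) against that at 30 hpf (horizontal axis, 2 arrays), 1 point for each of the 1936 named genes. Red points (158) are above WT on every 48 hpf array and below on both 30 hpf arrays and reach farther from the origin, where pvalb1 lies, while the 130 blue points of the opposite pattern lie nearer to it apart from a few such as naa50.

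No single gene passed limma's test of 48 minus 30 hpf over all genes and single probes. With Benjamini-Hochberg adjustment over 43504 of them, 0% were called higher and 0% lower at an adjusted p threshold of 0.05, and the lowest adjusted p from limma was 0.142, for pvalb1. At an unadjusted p under 0.05, limma found 1686 higher and 1551 lower among all, and 147 higher and 65 lower among the named genes. The filter on shared values was set by the same 30 and 48 hpf ratios that were then tested. Its adjusted p-values from limma are therefore not free of that choice, and whether the filter favours large ratios was not tested. With this filter, limma called 70 of 10779 genes and single probes higher (0.649%) and 20 lower (0.186%). Of these calls 24 higher and 1 lower were named genes. Of the 24, 23 stood on opposite sides at the stages on every array, and 14 were members of the 5 lists named above. Those lists were set apart by the same arrays, so this count too is a description. For each of the 25 the adjusted p from limma reached 0.931 in the fit with the replicate number as a block, and that of pvalb1 lay between 0.00226 and 0.931 over the alternatives. Without 30 hpf replicate 2, limma called 14 of all genes and single probes higher and 282 lower, 5 and 9 of them named genes.

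The 41 gene lists, of which 30 had at least 5 named genes, took 607 named genes by symbol and gene name. Counts of side in a list are set beside the share of all genes and single probes. Over the filtered named genes these shares were 9.78% (above WT at 48 and below at 30 hpf), 9.51% (the reverse), 12% (below at both) and 3.75% (above at both). For each list the median ratio on each array is given, beside the median over all named genes, which was -0.17, -0.14 and 0.01 on the 48 hpf arrays and -0.07 and -0.17 on the 30 hpf arrays. The median difference, 48 minus 30 hpf, was 0.02 over all named genes and 0.01 over all genes and single probes. In 5 lists the array medians stood above WT on every 48 hpf array and below on both 30 hpf arrays. In 2 lists, cathepsins and lysosome (6 genes) and cholesterol and fatty acid metabolism (9 genes), the medians were below WT on all 5 arrays. Only 1 gene of each was itself below WT on all 5, against 5.54% of all genes and single probes. On every array 1 gene of each stood above WT at 48 hpf and below at 30 hpf, and 2 cholesterol genes the reverse. The median over the 1059 named genes with every value shared by at most 10 probes was also below WT on all 5 arrays. This side is therefore not particular to the 2 lists. In the other 23 lists the side of the median differed between arrays of 1 stage.

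**Figure D2:**
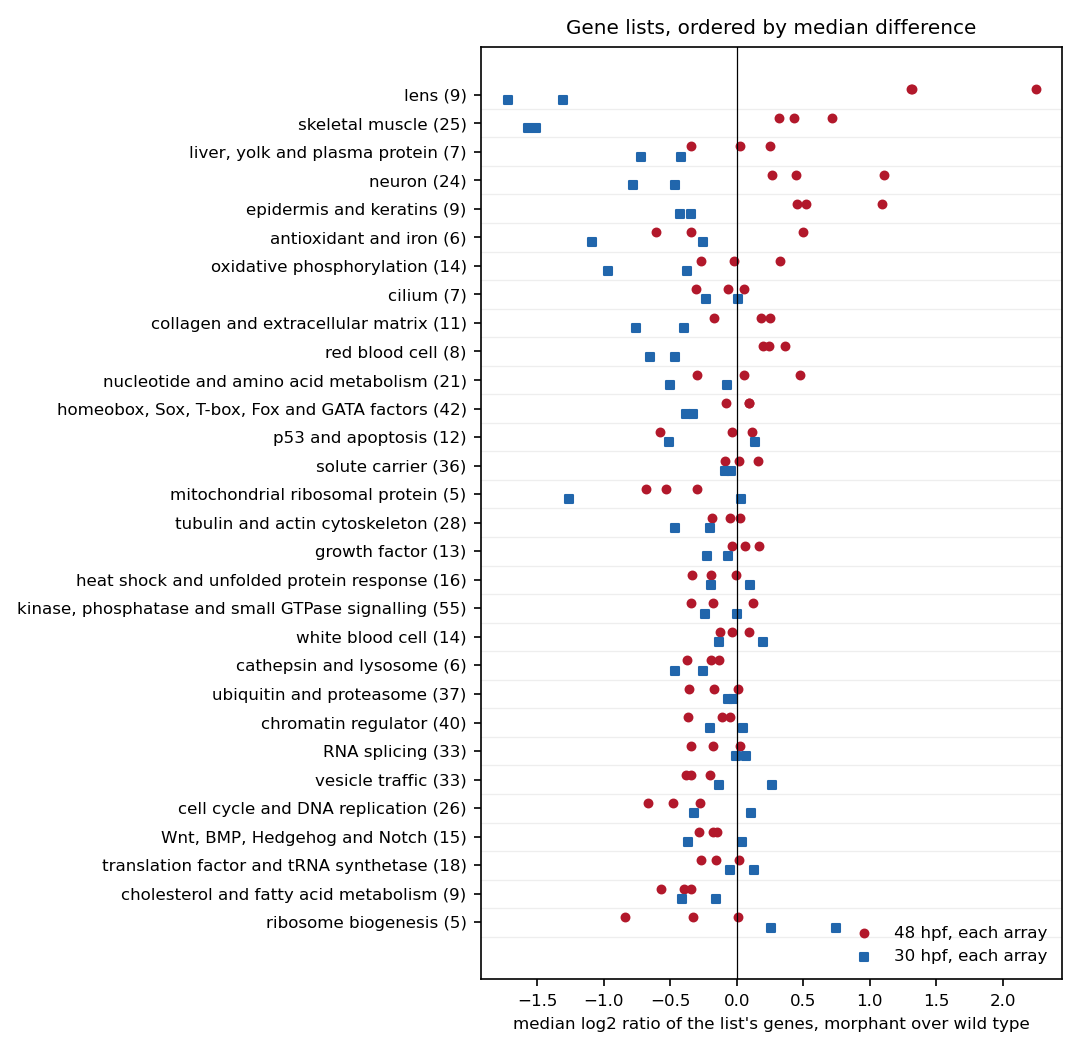
Median log2 ratio of morphant over WT (horizontal axis) in each of the 30 gene lists (number of named genes in parentheses), for each 48 hpf array (red circles) and each 30 hpf array (blue squares), ordered by the median difference. Lens, skeletal muscle, neuron, epidermis and keratins, and red blood cell are the lists with all red circles right of 0 and all blue squares left of it.

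Most skeletal muscle genes stood above WT at 48 hpf and below it at 30 hpf, and those farthest apart were contractile and calcium-handling proteins. The median over the 25 genes was 0.32, 0.43 and 0.71 on the 48 hpf arrays and -1.51 and -1.57 on the 30 hpf arrays, with a median difference of 2.12. Of the 25 genes, 13 stood above WT on every 48 hpf array and below on both 30 hpf arrays, against 5.23% of all genes and single probes. None stood the other way round, against 5.22% of all. In 19 genes every 48 hpf value was above every 30 hpf value, against 14.5% of all genes and single probes, and in 1 gene every 48 hpf value was below, against 14.8%. The filtered limma fit, which kept 23 of the 25, called 6 higher, against 0.649% of all genes and single probes so filtered.

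pvalb1 and pvalb2, parvalbumins that buffer calcium in fast fibres, stood farthest apart. The log2 ratio of pvalb1 was 1.87, 2.45 and 2.62 at 48 hpf and -3.01 and -3.07 at 30 hpf. Its mean was 4.97-fold above WT at 48 hpf and 8.21-fold below WT at 30 hpf, a difference of 5.35 ± 0.39 (SE) with an adjusted p of 0.0126 in the filtered limma fit. For pvalb2 the log2 ratio was 1.83, 1.99 and 2.74 at 48 hpf and -2.06 and -3.13 at 30 hpf (difference 4.78 ± 0.47, SE, adjusted p from the filtered limma fit 0.0146). In both genes the stages lay far apart on every array. pvalb4 had 0.39, -0.10 and 0.11 at 48 hpf and -1.29 and -2.68 at 30 hpf, so that only its 30 hpf values lay clearly off WT.

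Thin-filament proteins followed. The fast troponin T tnnt3b had log2 ratios of 0.84, 1.22 and 1.57 at 48 hpf and -2.70 and -3.23 at 30 hpf. Its probes, 2 in number, gave differences of 3.99 and 4.37. The troponin I named Tnni2 in the list, which matched no gene of the reference table, had 0.50, 0.68 and 0.83 at 48 hpf and -2.57 and -3.74 at 30 hpf. Both passed the filtered limma fit, with adjusted p of 0.0146 and 0.0314, as did the tropomyosin tpma (difference 3.18, adjusted p 0.0314). In each of these genes the distance below WT at 30 hpf was greater than the distance above it at 48 hpf.

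The remaining members on opposite sides included the actins acta1b (1.42, 1.22 and 1.59 at 48 hpf, -1.46 and -1.09 at 30 hpf) and actc1b, the fast myosin light chain mylpfa, the muscle creatine kinase ckmb, and atp2a1, the calcium pump of the sarcoplasmic reticulum. Of these, atp2a1 had 0.34, 0.58 and 1.21 at 48 hpf and -1.51 and -1.39 at 30 hpf. The histone methyltransferase smyd1a, which acts in myofibril assembly in zebrafish, had 0.32, 0.51 and 0.71 at 48 hpf and -1.60 and -1.79 at 30 hpf (adjusted p 0.0389 in the filtered limma fit). Actins, tropomyosins and troponins have close relatives, and an array probe may also bind RNA of a near-identical copy.

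Other muscle genes had other sides. The myosin chaperone unc45b stood at -2.45, -1.0 and -2.05 at 48 hpf and at -0.20 and -0.17 at 30 hpf, below WT throughout and lower at 48 hpf (difference -1.65). The Kelch protein klhl40b, which stabilizes thin filaments, had -1.18, -0.45 and -0.32 at 48 hpf and -0.59 and -0.68 at 30 hpf. The RNA-editing family member apobec2a had -1.30, -0.51 and -0.67 at 48 hpf and -1.07 and -1.50 at 30 hpf. These were the 3 members of the skeletal muscle list below WT on all 5 arrays. The genes trdn and tnnt2c, described below and not in that list, were also below WT on all 5. The muscle transcription factor myf6 and the acetylcholine receptor subunit chrne had no common side within a stage, and their differences were -0.44 and -0.03.

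**Figure D3:**
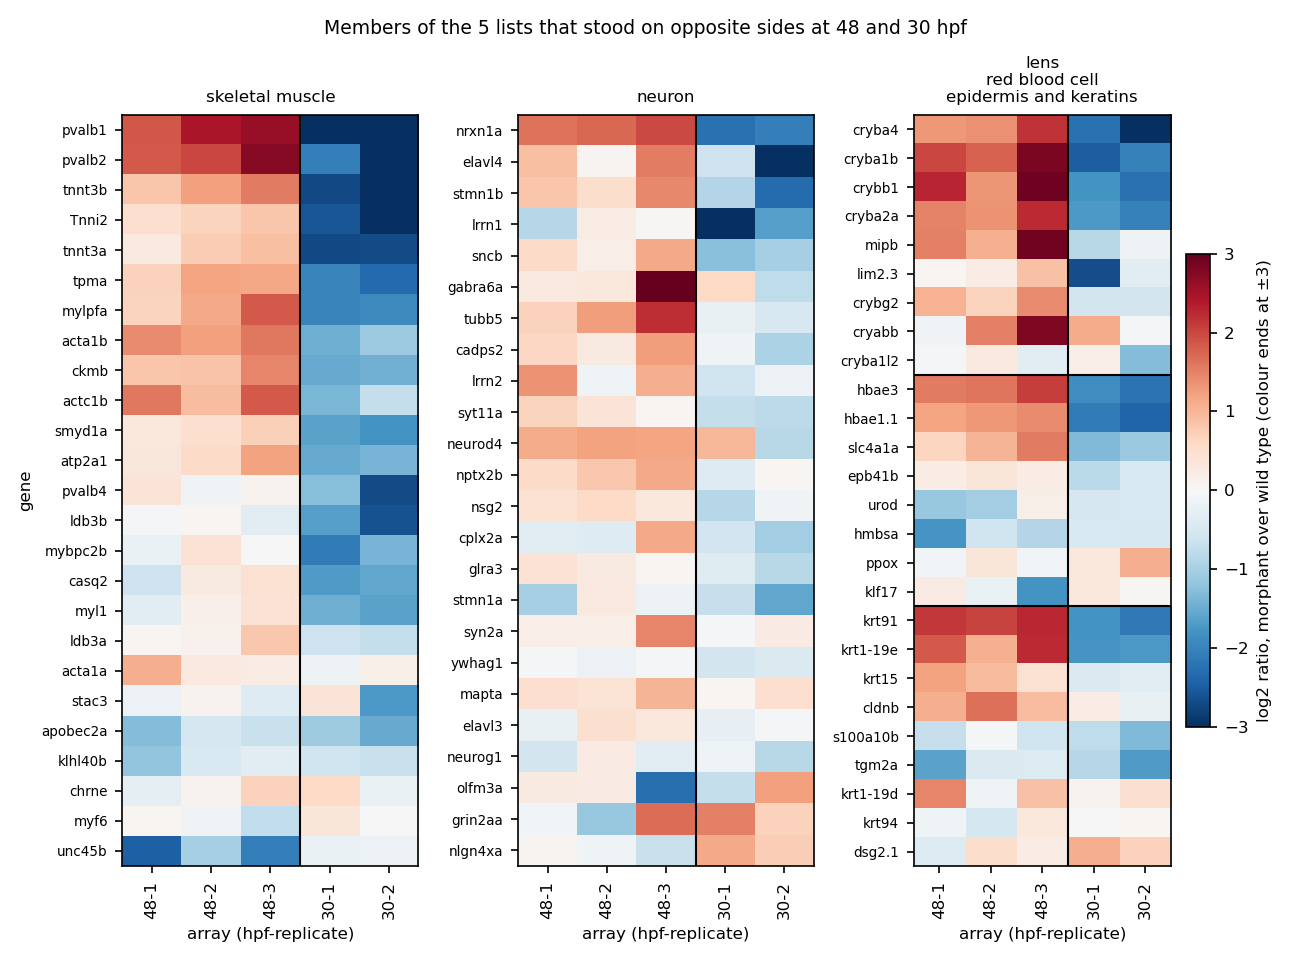
Log2 ratio of morphant over WT (colour, ending at ±3) of each gene (rows) of the 5 lists on the 3 arrays at 48 hpf and the 2 arrays at 30 hpf (columns), each list ordered by the difference, with the third panel holding the lens, red blood cell and keratin lists from top to bottom. The upper rows of each list are red at 48 hpf and blue at 30 hpf, and unc45b in the lowest muscle row is blue in all 5 columns.

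Lens genes stood far apart at the stages, with a median difference of 2.32. The median over the 9 genes was 1.31, 1.32 and 2.25 on the 48 hpf arrays and -1.72 and -1.30 on the 30 hpf arrays. On every array 7 of the 9 stood above WT at 48 hpf and below at 30 hpf, against 5.23% of all genes and single probes. Among the 7 was crybg2, counted here by its symbol, which the authors' list describes as PR domain containing 1b. Its values were shared by up to 12 probes of an array. The beta crystallins, structural proteins that fill the lens fibre cells, led the list. cryba1b had 1.99, 1.78 and 2.83 at 48 hpf and -2.47 and -2.04 at 30 hpf. For cryba4 the values were 1.31, 1.38 and 2.16 at 48 hpf and -2.23 and -3.86 at 30 hpf. crybb1 had 2.28, 1.32 and 2.92 at 48 hpf and -1.80 and -2.24 at 30 hpf, with 4.09 and 4.29 as the differences of its probes, and cryba2a had a difference of 3.56.

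These 4 crystallins were the lens genes that the filter on shared values kept, and all 4 passed the filtered limma fit (adjusted p 0.0162 to 0.0259). Of all genes and single probes so filtered, that fit called 0.649% higher. The filter drew on the same 30 and 48 hpf ratios, so these calls are not separate support. It kept differences of 3.56 to 4.66 and dropped cryabb (0.87), cryba1l2 (0.52), crybg2 (1.60) and lim2.3 (1.88), among others. Without the filter the adjusted p from limma of the 4 was 0.23 to 0.267. The lens aquaporin mipb had 1.51, 1.07 and 2.91 at 48 hpf and -0.82 and -0.15 at 30 hpf, on opposite sides as well, but its values were shared by up to 29 probes of an array. The crystallins cryabb and cryba1l2 kept no side within a stage. Over single probes, with the replicate block or without single arrays the median difference lay between 1.78 and 3.04, and over the 4 filtered genes it was 4.32.

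The medians of the neuronal list stood above WT at 48 hpf and below it at 30 hpf, less far apart than those of muscle and lens. The median over the 24 genes was 0.44, 0.26 and 1.11 on the 48 hpf arrays and -0.46 and -0.78 on the 30 hpf arrays, with a median difference of 0.98. Of the 24, 9 stood above WT at 48 hpf and below at 30 hpf on every array, against 5.23% of all genes and single probes. In 15 every 48 hpf value was above every 30 hpf value, against 14.5%, and in 1 below, against 14.8%. Another 1 was below WT on all 5 arrays (5.54% of all), 1 was above on all 5 (4.23%), and 13 had no common side in 1 or both stages. The difference was below 0 in 3 genes, the lowest at -1.17. The presynaptic adhesion protein nrxn1a had log2 ratios of 1.63, 1.73 and 1.98 at 48 hpf and -2.25 and -2.05 at 30 hpf, a difference of 3.93 ± 0.35 (SE). It was the 1 member that passed the filtered limma fit (adjusted p 0.0146), which kept 12 of the 24. Of all genes and single probes so filtered, that fit called 0.649% higher. The neuronal RNA-binding protein elavl4 had 0.89, 0.09 and 1.53 at 48 hpf and -0.63 and -3.96 at 30 hpf, so its 2 arrays at 30 hpf were far apart. Its relative elavl3 had values on both sides at 48 hpf, and its difference was 0.33.

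Of 28 tubulin and actin cytoskeleton genes, 5 stood above WT at 48 hpf and below at 30 hpf on every array, against 5.23% of all genes and single probes. Another 7 were below on all 5 arrays (5.54% of all, 12% of the filtered named genes) and 2 above on all 5 (4.23% of all). The other 14 had no common side in 1 or both of the stages. stmn1b, a regulator of microtubules in neurons, had 0.83, 0.52 and 1.45 at 48 hpf and -0.88 and -2.32 at 30 hpf. tuba1c had 1.05, 1.33 and 1.32 at 48 hpf and -0.82 and -1.01 at 30 hpf. tuba2, tubb5 and tubb4bl had the same pattern, with differences of 1.74, 1.73 and 1.49. Of these genes stmn1b and tubb5 also belonged to the neuronal list and were counted there too.

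The 7 below WT on all 5 arrays were the profilin pfn2b (-0.14, -0.41 and -0.26 at 48 hpf, -0.40 and -0.33 at 30 hpf), the membrane linker msna (-0.50, -0.48 and -0.25 at 48 hpf, -0.39 and -0.57 at 30 hpf), tpm3, myh9l2, lasp1, pdlim5b and the tubulin tuba8l4. Their differences lay between -0.28 and 0.23. The median difference over the 28 genes was 0.16, and no list member had all 48 hpf values below the 30 hpf values.

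Some transcription factors of the developing nervous system had the same order of stages. In the list of 42 homeobox, Sox, T-box, Fox and GATA factors, 7 stood above WT at 48 hpf and below at 30 hpf on every array (5.23% of all genes and single probes did), 1 the other way round (5.22%), 3 below (5.54%) and 3 above (4.23%) at both. The 7 were foxn4, which acts in progenitors of the retina and spinal cord, sox11a and sox11b of differentiating neurons, the LIM homeobox gene lhx2b, pou4f4 of the POU family, meis2b and hoxc5a. The values of lhx2b were shared by up to 19 probes of an array. foxn4 had 0.76, 0.29 and 0.57 at 48 hpf and -2.60 and -3.91 at 30 hpf (difference 3.79 ± 0.48, SE, adjusted p from the filtered limma fit 0.0212). sox11a had 0.27, 0.16 and 0.84 at 48 hpf and -1.20 and -2.74 at 30 hpf. The progenitor factor sox2, by contrast, stood at -0.72, -0.93 and -0.09 at 48 hpf and -0.25 and -0.79 at 30 hpf, below WT at both. The axon guidance receptor plxna4 and the neuronal membrane glycoprotein gpm6aa, which were in no list, also passed the filtered limma fit, with differences of 2.66 and 2.64 and adjusted p of 0.0461 and 0.0314.

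In red blood cells the globins and membrane proteins stood on opposite sides and the enzymes of heme synthesis did not. The median over the 8 genes was 0.24, 0.36 and 0.20 on the 48 hpf arrays and -0.65 and -0.46 on the 30 hpf arrays, with a median difference of 0.36 that lay between 4 positive and 4 negative differences and was 1.05 over genes with values shared by at most 10 probes. The embryonic alpha globin hbae3 had 1.55, 1.62 and 2.07 at 48 hpf and -1.86 and -2.20 at 30 hpf. Its relative hbae1.1 had 1.19, 1.31 and 1.43 at 48 hpf and -2.09 and -2.40 at 30 hpf. Both passed the filtered limma fit with an adjusted p of 0.0146, and hbae3 gave 3.67 and 3.88 on its probes. The embryonic globin genes are near-identical copies of each other, so their probes may bind the same RNA.

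The anion exchanger of the red cell membrane, slc4a1a, had 0.64, 1.03 and 1.56 at 48 hpf and -1.31 and -1.10 at 30 hpf, with differences between 2.11 and 2.46 on its 3 probes. The membrane skeleton protein epb41b had the same sides, with a difference of 0.90, and its values were shared by up to 59 probes of an array. Of the heme synthesis enzymes, hmbsa was below WT on all 5 arrays (-1.77, -0.61 and -0.88 at 48 hpf, -0.46 and -0.47 at 30 hpf). urod had -1.14, -1.03 and 0.17 at 48 hpf and -0.51 and -0.45 at 30 hpf, while ppox had values on both sides at 48 hpf. The differences of the 3 enzymes and of the transcription factor klf17 were -0.19 to -0.77.

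Of 9 genes of epidermis and keratins, 3 stood above WT at 48 hpf and below at 30 hpf on every array, against 5.23% of all genes and single probes. They were the keratins krt91, krt1-19e and krt15. The values of krt15 were shared by up to 60 probes of an array. krt91 had log2 ratios of 2.11, 2.03 and 2.27 at 48 hpf and -1.80 and -2.16 at 30 hpf, a difference of 4.11 ± 0.38 (SE) and an adjusted p of 0.0146 in the filtered limma fit. krt1-19e had 1.84, 1.07 and 2.23 at 48 hpf and -1.76 and -1.73 at 30 hpf. The S100 protein s100a10b and the transglutaminase tgm2a were below WT on all 5 arrays, and krt94 had a difference of -0.13. The median over the 9 genes was 1.09, 0.52 and 0.45 on the 48 hpf arrays and -0.43 and -0.34 on the 30 hpf arrays. Its median difference of 0.59 was 0.885 without 30 hpf replicate 1 and 0.889 without 48 hpf replicate 2.

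Several smaller groups had members on the same sides as these tissues. The share of all genes and single probes with these sides on every array was 5.23%. The collagens col1a1a (0.97, 0.56 and 0.72 at 48 hpf, -1.51 and -1.62 at 30 hpf) and col1a2 (0.52, 0.65 and 1.47 at 48 hpf, -1.02 and -1.25 at 30 hpf) and the collagen-binding protein sparc were 3 of 11 extracellular matrix genes, whereas emilin1a of the elastic fibres stood the other way round (difference -1.52). Of 7 genes of liver, yolk and plasma proteins, f2 (prothrombin) and plg (plasminogen) had these sides, with differences of 1.07 and 1.06. itih5 stood the other way round (difference -1.02) and ahsg2 below WT on all 5 arrays (difference -1.12). Up to 37 probes of an array shared the values of emilin1a, and up to 276 those of ahsg2. In the pigment cell list, which had only 4 named genes, the pigment synthesis enzyme gch2 and the melanocyte factor mitfa had differences of 1.90 and 1.32.

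Of 14 oxidative phosphorylation genes 13 had a difference above 0, against 995 of 1936 named genes and 21879 of 43504 genes and single probes. The median difference was 0.45, or 1.55 with the prefix of the array names as a term. Only atp5mc3b, a subunit of the ATP synthase, stood on opposite sides on every array. The median over the 14 was -0.27, -0.02 and 0.32 on the 48 hpf arrays and -0.37 and -0.97 on the 30 hpf arrays, below WT at 30 hpf and around WT at 48 hpf. Genes in no list that passed the filtered limma fit included the FGF signalling antagonist spry1 (difference 2.91), the kinase tnk2b (3.54) and the topoisomerase top1a (3.13). spry1 had 0.75, 1.32 and 1.59 at 48 hpf and -1.88 and -1.50 at 30 hpf.

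The genes below WT at 48 hpf and above at 30 hpf that led by size act in transcription, protein turnover, purine synthesis and DNA methylation, and apart from naa50 their differences were smaller than those of the leading genes of the opposite pattern. LOC100004940, which the list describes as similar to TAFI95, had -1.02, -0.49 and -0.53 at 48 hpf and 1.40 and 1.51 at 30 hpf, a difference of -2.13 ± 0.36 (SE), and was the 1 named gene called lower in the filtered limma fit (adjusted p 0.0495). The RNA-binding repressor myef2 had -0.79, -1.11 and -0.61 at 48 hpf and 0.89 and 1.58 at 30 hpf. The proteasome activator psme3 had -1.03, -1.64 and -0.67 at 48 hpf and 1.20 and 0.42 at 30 hpf. In all 3 genes no 48 hpf value came near the 30 hpf values.

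The purine synthesis enzyme pfas had -0.83, -1.09 and -0.97 at 48 hpf and 1.03 and 0.80 at 30 hpf. uhrf1, which maintains DNA methylation through replication, had -1.20, -2.08 and -0.89 at 48 hpf and 0.20 and 0.52 at 30 hpf. wt1a, a transcription factor of the kidney and of the epicardium, had -0.04, -0.28 and -0.53 at 48 hpf and 1.64 and 1.26 at 30 hpf, with most of its distance from WT at 30 hpf. The acetyltransferase naa50 headed these genes by its mean difference, -5.34, but its 30 hpf values were 8.70 and 0.16, and the difference rested on 1 array.

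By function, vesicle traffic genes had 5 of 33 members below WT at 48 hpf and above at 30 hpf on every array, against 5.22% of all genes and single probes, and 0 the other way round, against 5.23%. They were the clathrin heavy chain cltca (-0.41, -0.88 and -0.33 at 48 hpf, 0.73 and 0.70 at 30 hpf), arf2b, tmed9, vps9d1 and trappc11. The list's median difference was -0.21, and 2 of its members were higher and 9 lower at 48 hpf without overlap of the stages, against 14.5% and 14.8% of all. With the prefix of the array names as a term, cltca and tmed9 had differences of 0.09 and 0.46. Below WT at 48 hpf and above at 30 hpf on every array stood 6.71% of all named genes. The share was 10.9% of all genes and single probes left by the filter on shared values, which kept 24 of the 33. The counts of this pattern are therefore not read as a result about function. Of 15 genes of Wnt, BMP, Hedgehog and Notch signalling 4 had this pattern, against 5.22% of all, while the list's median difference was -0.32 and lay between -0.39 and 0.13 without single arrays. The 4 were the BMP effector smad1 (-0.48, -0.64 and -0.64 at 48 hpf, 0.17 and 0.85 at 30 hpf), the BMP receptor bmpr1aa, the Notch ligand jag2b and tcf7l1a, a repressor of Wnt targets. The Notch target genes her4.5 and her15.2 had positive differences, 2.71 and 2.12, with no common side at 48 hpf. The values of her4.5 were shared by up to 17 probes of an array.

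The cholesterol synthesis enzyme dhcr7 (-1.26, -0.68 and -1.06 at 48 hpf, 0.26 and 0.18 at 30 hpf) and the histone chaperone supt16h (difference -1.16) had the same sides. dhcr7 was 1 of 2 such genes in the cholesterol and fatty acid metabolism list. The list of 5 ribosome biogenesis genes had a median difference of -0.86, and of -0.57 over genes with values shared by at most 10 probes. The gene gar1 of the snoRNA-guided RNA modification complex was its 1 member on opposite sides (-1.27, -0.72 and -0.84 at 48 hpf, 0.82 and 0.68 at 30 hpf), and its difference was 0.64 with the prefix of the array names as a term. Of 18 translation factors and tRNA synthetases 8 were lower and 2 higher at 48 hpf without overlap, against 14.8% and 14.5% of all genes and single probes, with a median difference of -0.34, or 0.57 with the prefix of the array names as a term.

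The median over 26 genes of DNA replication and mitosis was -0.67, -0.48 and -0.28 on the 48 hpf arrays and 0.11 and -0.32 on the 30 hpf arrays, with a median difference of -0.22, or 0.32 with the prefix of the array names as a term. Of the 26, 18 had no common side in 1 or both of the stages. In 9 of the 26 every 48 hpf value was below every 30 hpf value, against 14.8% of all genes and single probes, and in 2 above, against 14.5%. The replication clamp pcna had -1.98, -0.82 and -1.0 at 48 hpf and -0.16 and -0.29 at 30 hpf. The condensin subunit smc2 had -1.72, -0.68 and -0.69 at 48 hpf and -0.16 and -0.14 at 30 hpf. Both were below WT on all 5 arrays, while mcm6 of the replicative helicase, cdca7a and the cohesin subunit smc3 were below at 48 hpf and above at 30 hpf. The difference was below 0 in 18 of the 26 genes and above 0 in 8. The largest in size was positive, 3.63 ± 1.56 (SE) for ccnb1l, which stood above WT at 48 hpf and below at 30 hpf on every array. Its 48 hpf replicate 1 lay far above the other 48 hpf arrays, and its values were shared by up to 30 probes of an array. The next largest positive difference was 1.10, for cenpk, whose stages overlapped.

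**Figure D4:**
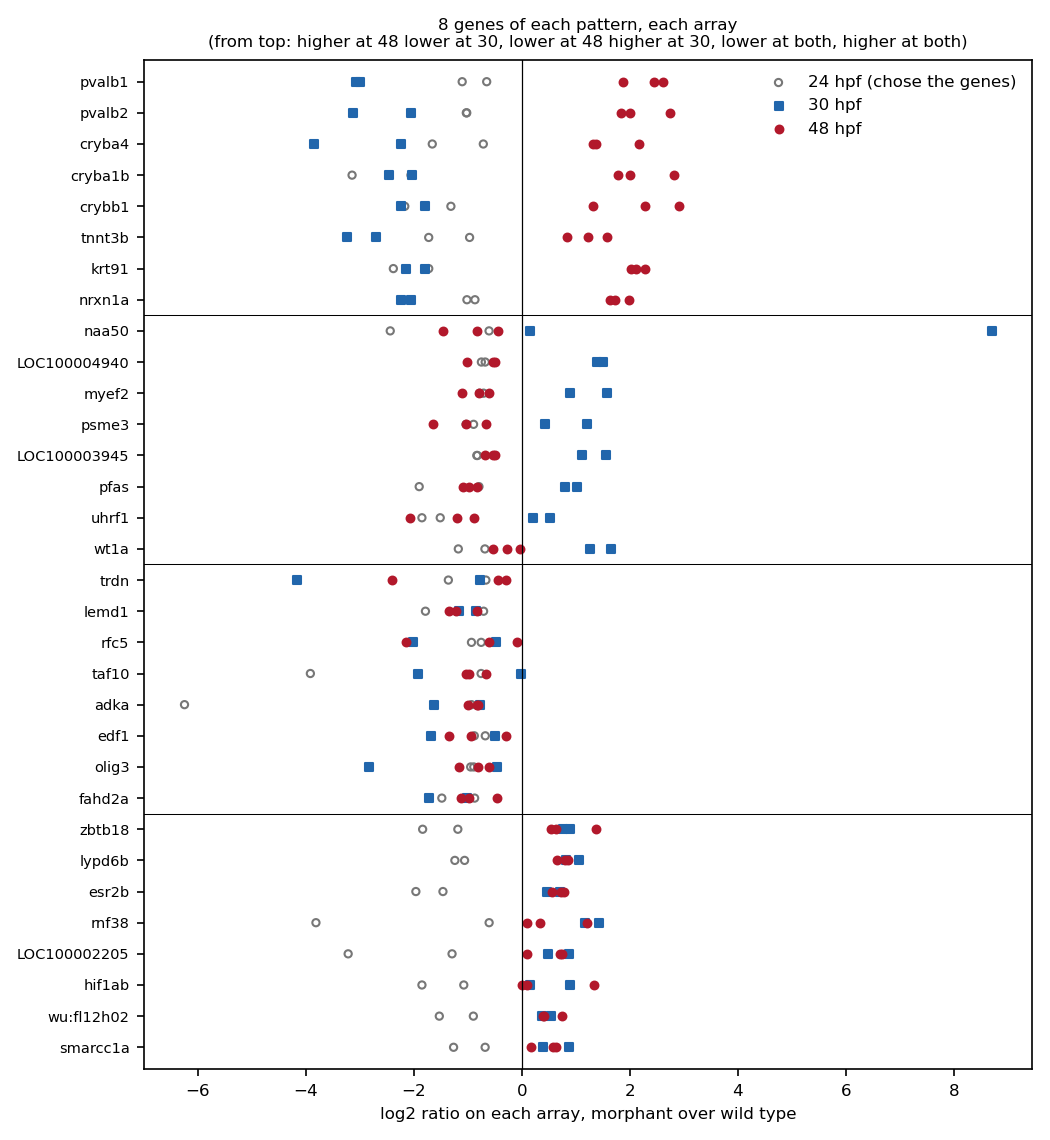
Log2 ratio of morphant over WT on each array (horizontal axis) for 8 genes of each of the 4 patterns, chosen by size among genes with values shared by at most 10 probes, with 24 hpf as open circles (these values chose the genes), 30 hpf as blue squares and 48 hpf as red circles. In the top block the red circles lie above 0.8 and the blue squares below -1.7, and in the second block naa50 has 1 blue square at 8.70 and the other at 0.16.

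Genes below WT at both stages were, through the choice by 24 hpf values, below WT on all 7 arrays. The genes farthest below at both stages among those with values shared by at most 10 probes included trdn, a protein of the muscle calcium release complex (-0.44, -2.41 and -0.30 at 48 hpf, -0.78 and -4.17 at 30 hpf), and lemd1 (-1.35, -1.21 and -0.83 at 48 hpf, -0.84 and -1.17 at 30 hpf). The adenosine kinase adka had -1.0, -0.81 and -0.84 at 48 hpf and -0.77 and -1.63 at 30 hpf. lemd1 and adka were at a like distance from WT at both stages, while trdn was spread widely within each. The neural progenitor factor olig3 had -0.81, -0.61 and -1.16 at 48 hpf and -0.46 and -2.84 at 30 hpf. The replication factor rfc5, the transcription factor subunit taf10, the coactivator edf1 and fahd2a completed these 8, and the differences of rfc5's probes were -0.39 and 1.00.

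At least 1.5-fold below on all 5 arrays stood also the laminin receptor itga6a (-1.48, -1.07 and -1.15 at 48 hpf, -1.48 and -2.13 at 30 hpf) and the fatty acid carrier fabp3 (-0.70, -0.76 and -0.85 at 48 hpf, -1.26 and -1.90 at 30 hpf). The values of itga6a were shared by up to 40 probes of an array. tnnt2c, which the list describes as a slow skeletal troponin T, had -1.87, -0.95 and -2.30 at 48 hpf and -0.99 and -1.03 at 30 hpf. The probes of tnnt2c, 2 in number, gave differences of -1.73 and 0.34, and its values were shared by up to 16 probes of an array. tnnt2c and the cardiac myosin-binding protein mybpc3 were the only 2 named genes of the heart list, and mybpc3 stood at 0.15, 0.26 and 0.25 at 48 hpf and -0.59 and -1.03 at 30 hpf.

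Genes above WT at both stages had been below it at 24 hpf by choice. lypd6b, a membrane protein of the Ly6 family, had 0.80, 0.65 and 0.86 at 48 hpf and 1.06 and 0.82 at 30 hpf. The estrogen receptor esr2b had 0.56, 0.72 and 0.79 at 48 hpf and 0.47 and 0.71 at 30 hpf. The transcriptional repressor zbtb18 had 0.53, 0.63 and 1.36 at 48 hpf and 0.76 and 0.90 at 30 hpf. In these 3 genes the stages overlapped, and the differences were -0.17, 0.10 and 0.01. The chromatin remodelling subunit smarcc1a, the hypoxia factor hif1ab and the splicing factors hnrnpl, hnrnpaba and ddx5 were also above on all 5 arrays.

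Of the growth-related genes that the study names on these arrays, 7 were placed here. The adaptor of receptor tyrosine kinases grb2b stood above WT at 48 hpf (0.38, 0.08 and 0.52) and below at 30 hpf (-0.36 and -0.25), with a difference of 0.63 ± 0.43 (SE). vegfaa, the growth factor of blood vessels, stood below WT at 48 hpf (-1.14, -1.08 and -0.28) and above at 30 hpf (0.31 and 0.13), with a difference of -1.06 ± 0.48 (SE). The receptor flt4 of lymphatic and venous endothelium, which was not one of the 7, had the same sides as vegfaa, with -0.66, -0.10 and -1.10 at 48 hpf and 0.18 and 0.41 at 30 hpf.

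The midkine mdkb was below WT on all 5 arrays (-0.03, -1.07 and -0.23 at 48 hpf, -0.59 and -0.60 at 30 hpf). The growth hormone receptor ghra, the tumour suppressor ing4, and the insulin-like growth factor binding protein igfbp2a, which the list names igfbp2b, had differences of 0.13, 0.01 and 0.16, each within its standard error. The FGF-binding fibpb had -0.26, 1.90 and 2.26 at 48 hpf and 0.78 and 0.93 at 30 hpf, with a difference of 0.45, and its values were shared by up to 57 probes of an array. None of these genes passed limma's test of 48 minus 30 hpf, a comparison the study does not report, nor the filtered fit where it kept them.

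With the prefix of the array names as a term, the values of the lists moved by different amounts. In that fit the difference becomes 48 minus 30 hpf less the difference of 24 hpf replicate 2 and replicate 1, and it rests on 1 array a prefix at 24 hpf. The median difference with that term was 2.76 for skeletal muscle, 2.35 for lens, 1.11 for neuron, 1.21 for red blood cell and 1.04 for epidermis and keratins, each above the value without it, and 0.20 over all named genes. For the lists with negative medians the sign did not hold throughout. Ribosome biogenesis stood at -0.35 with the term, but cell cycle and DNA replication at 0.32 and translation factors at 0.57, against -0.22 and -0.34 without it. Because both 24 hpf arrays chose the named genes, the term is itself limited for them. With the prefix term limma called 598 of all genes and single probes higher and 233 lower at 48 hpf, of them 13 higher and 0 lower among the named genes, with pvalb1 at an adjusted p of 0.0479, cryba1b at 0.0483 and krt91 at 0.0406. The part of the prefix in the remaining differences was not tested.

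**Figure D5:**
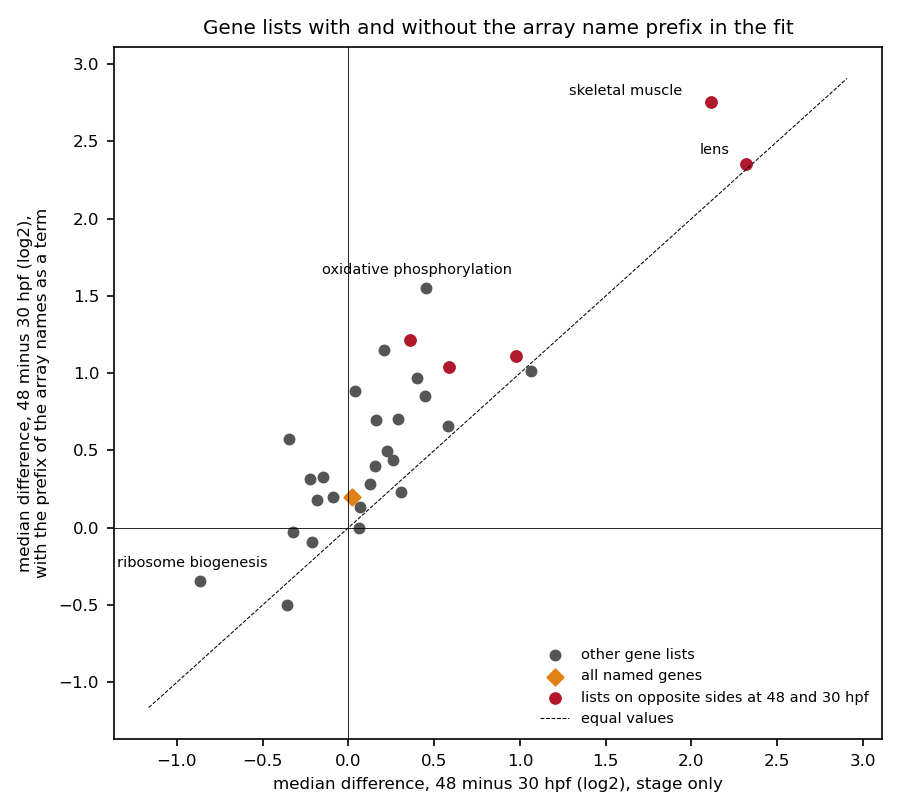
Median difference, 48 minus 30 hpf, of each gene list with the prefix of the array names as a term (vertical axis, log2) against that without it (horizontal axis, log2), with the line of equal values dashed. The 5 lists on opposite sides at both stages (red) lie on or above the line, while several lists left of 0 on the horizontal axis lie above 0 on the vertical axis.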

How the data were processed

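Morphant and WT RNA shared each of 7 Agilent zebrafish arrays (24 hpf, n = 2; 30 hpf, n = 2; 48 hpf, n = 3). After normalization in GeneSpring GX the authors deposited log2 ratios, 1 for a probe on an array, with the morphant dye Cy5 on top and the WT dye Cy3 below. What that normalization did, and whether dim spots were filtered, was not given in the sources used here. Precision is limited by the number of arrays. Lists of lower probes that the authors deposited hold log2 ratios and gene names, and no test or fold change. Only the 24 hpf list was used, and no column of per-sample values was left without a sample (0).

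Of 3372 probes of that list, 3328 were placed on 1 row of the value table, and 2095 of these carried a symbol. By Entrez number 1928 probes matched the reference table (GRCz12tu annotation), which updated 994 symbols. Probes of 1 gene were averaged (148 genes had more than 1 probe, and in 41 of these the probes had differences of opposite sign), which gave 1936 genes, and unnamed probes were kept singly. Stage means over the 7 arrays were fitted with limma 3.58.1 (R 4.3.3), which tested 48 minus 30 hpf with Benjamini-Hochberg adjustment over all features. The fit was tested on simulated data. A side on every array was counted with no test.

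The genes named were up to 10 per direction among the tested calls (the planned fit gave 0), up to 8 of each pattern by size among genes with values shared by at most 10 probes, up to 4 of each list of at least 5 genes by absolute difference, and those the study names. Other genes were chosen after their values were seen. Some genes that the rule gave are not described above. Among them are atp6v0cb (difference 4.60), mthfd2l (4.27), rab3aa (-3.56), six7 (-2.55) and slc16a7 (-2.20). The members and lists were chosen with earlier results of these data known. Alternatives were centring, scaling, the 5 arrays alone, the replicate block, the prefix of the array names in the headers of the authors' lists, single probes, probe medians, filters on shared values, robust moderation, other thresholds and each array left out. Same-numbered arrays deviated together with correlations between -0.01 and 0.02 only. Arrays of the same stage themselves correlated at only 0.07 to 0.14 over all 43663 probes. Such low values therefore cannot decide whether same-numbered arrays were paired, and the numbers are used here as names of samples. Figures were drawn with matplotlib 3.10.9.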

Additional observations from a re-analysis of the deposited data

Results flagged for a closer look

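In 5 gene lists the medians moved one way on every array at 48 hpf and the opposite way on both arrays at 30 hpf, and the difference between the stages was not tested for a list. The median difference, 48 minus 30 hpf, was 2.12 for skeletal muscle, 2.32 for lens, 0.98 for neuron, 0.36 for red blood cell and 0.59 for epidermis and keratins. For skeletal muscle, lens and neuron most members shared the direction (21 of 25, 9 of 9 and 21 of 24), whereas in the red blood cell list 4 of 8 did.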

How the results depend on the processing

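With the prefix of the array names as a term, limma called 831 genes and single probes (598 higher, 233 lower) in place of 0, with values shared by at most 10 probes 90, with values found once 270, and without single arrays between 0 and 296, the highest without 30 hpf replicate 2. With the replicate block limma called 0. The 288 genes on opposite sides numbered 95 with values found once, 35 at 1.5-fold, 970 by stage means and 288 to 480 without single arrays, and the 236 on 1 side 58, 6, 966 and 236 to 428. Values that could not be computed were the side counts with the replicate block or the prefix term. The median difference for skeletal muscle was 2.49 with values found once and 2.76 with the prefix term. For lens it was 4.32 with values shared by at most 10 probes, 4.45 found once, 2.94 over single probes, 1.78 with the replicate block and 1.78 to 3.04 without single arrays. For red blood cell it was 1.05, 2.92 and 2.11 under the first 3 of these settings, 1.21 with the prefix term and 0.26 to 0.49 without single arrays, and for epidermis and keratins 1.22 found once, 1.04 with the prefix term and 0.59 to 0.889 without single arrays. The prefix term turned the sign of eif4g3a (-0.97), sf1 (1.26), mapk14a (0.45) and gar1 (0.64). For the 61 genes on opposite sides named by the rule, 884 of 933 values under alternatives kept direction and side of the threshold and 45 newly passed it. The planned fit called 0 genes, so none could fall from the threshold, and keeping its side meant staying uncalled. The genes were also chosen for opposite sides on every array, so these counts do not measure stability. The cause of the changes under the alternatives was not tested. Without intensities, signal over background is unknown.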
